A study of Homo sapiens with 2 samples.

Results

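hsa-miR-103a-3p, hsa-miR-107, hsa-miR-26a-5p, hsa-miR-26b-5p and both arms of miR-191 and miR-425 (hsa-miR-191-5p, hsa-miR-191-3p, hsa-miR-425-5p and hsa-miR-425-3p) are widely expressed miRNAs whose hairpins lie within protein-coding host genes, and several of them are in common use as references in exosome studies. They were taken by name from a one-colour Agilent miRNA array, on which 8 of the 2549 human miRNAs carried these names. The RNA was that of exosomes (small vesicles that cells shed) from FaDu, a human line of hypopharyngeal squamous cell carcinoma. One array held exosome RNA of cells given the NC plasmid lentivirus (oe-NC), and the other that of cells given a lentivirus for overexpression of the lncRNA HOTTIP (oe-HOTTIP). There was 1 array per group, with 200 ng of RNA labelled for each, so no difference has a replicate check and no p-value was computed. The labels speak of a lentivirus and the methods of plasmids transfected with a lipid reagent, and how the FaDu exosomes were isolated is not given in the sources used here. All values belong to 1 cell line and leave out any spread between cultures. The title and treatment of each array name one group while its description names the other. Titles were followed here, and if the descriptions hold instead, every direction is the opposite. HOTTIP itself is not on the array and cannot check the names.

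Intronic miRNAs are cut from the introns of their host transcripts, trimmed to a short duplex, and loaded as a single arm into an Argonaute protein, where bases 2 to 8, the seed, lead the pairing with target mRNAs. miR-103a and miR-107 lie in the pantothenate kinase genes, whose enzymes start the synthesis of coenzyme A, and are known to act on DICER1 and on insulin signalling. miR-26a and miR-26b lie in genes of small C-terminal domain phosphatases and are known as regulators of EZH2 and of the cell cycle. miR-191 and miR-425 share the host DALRD3 and are raised in several carcinomas.

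RefSeq (GRCh38.p14) held the mature sequence of 7 of the 8 miRNAs. They are shown with the seed in capitals, 5′ to 3′, because the near-identity of the paired miRNAs bears on how far their signals can be told apart.
miR-103a-3p: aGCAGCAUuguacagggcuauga
miR-107: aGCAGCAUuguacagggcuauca
miR-26a-5p: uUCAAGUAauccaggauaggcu
miR-26b-5p: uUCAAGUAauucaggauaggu
miR-191-5p: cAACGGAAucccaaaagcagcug
miR-191-3p: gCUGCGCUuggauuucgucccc
miR-425-3p: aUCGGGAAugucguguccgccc

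miR-103a-3p and miR-107 had the same seed and differed by the single substitution G22C over 23 bases, counted from the 5′ end. miR-26a-5p and miR-26b-5p also shared a seed and differed by C11U and C21U over the 21 bases compared, and miR-26a-5p was 1 base longer. The other 3 arms shown had seeds of their own, which gave 5 distinct seeds in all. Whether the probes of one member of a pair also bind the other was not tested.

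The mature miR-103a-3p sequence is encoded at chr5:168560904-168560926 (minus strand) within PANK3 and at chr20:3917541-3917563 (plus strand) within PANK2. miR-107 lies at chr10:89592756-89592778 (minus strand) within PANK1. miR-26a-5p comes from chr3:37969413-37969434 (plus strand) within CTDSPL and from chr12:57824658-57824679 (minus strand) within CTDSP2, and miR-26b-5p from chr2:218402657-218402677 (plus strand) within CTDSP1. The array reads the copies of miR-103a-3p and of miR-26a-5p as 1 miRNA each. On the minus strand of chromosome 3, miR-191-5p lies at chr3:49020672-49020694, miR-191-3p at chr3:49020631-49020652 and miR-425-3p at chr3:49020159-49020180, all within DALRD3. The hairpins of miR-425 and miR-191 are 383 bases apart. Of the 7 host genes, the 6 whose strand was listed run on the same strand as their miRNA. The annotation used here gives gene spans only, so exon and intron were not read from it.

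Brightness differed by 0.65 on the log2 scale, in favour of the oe-HOTTIP-labelled array, at the 90th percentile of the 261 miRNAs detected on both arrays, and this percentile was used to scale each array. "Log2 difference" below means the oe-HOTTIP-labelled array minus the oe-NC-labelled array after scaling, and intensities are given before scaling. Negative control spots, which match no miRNA, averaged 3.87 ± 2.37 (SD, 976 spots) on the oe-NC-labelled array and 3.45 ± 2.21 (SD, 975 spots) on the other. The arrays shared a slide and a scan date. Detection was taken from the flag of the scanner software, and SDs of a miRNA were pooled within its probes. Of the 8 miRNAs, 6 were detected on both arrays, miR-425-3p only on the oe-NC-labelled array, and miR-191-5p on neither. Over the whole array, 10.2% of miRNAs were detected on both. Probes differ in brightness for reasons other than abundance, so no level was set against that of another miRNA.

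After scaling, miR-103a-3p and miR-107 had log2 differences within their standard errors of 0. miR-107 had an intensity of 40.1 ± 7.21 (SD, 20 spots) on the oe-NC-labelled array, against 63.2 ± 10.8 (SD, 20 spots) on the oe-HOTTIP-labelled array. After scaling, its log2 difference was 0.0059 with a standard error over spots of 0.080. Its spots ran from 7.27 to 78.2 (median 33.4) and from 16.4 to 126 (median 51.8). All 20 were well above background on the oe-HOTTIP-labelled array, and 19 of 20 on the other. miR-103a-3p stood at 20.8 ± 8.63 (SD, 19 spots) and 30.6 ± 5.12 (SD, 20 spots), a log2 difference of -0.089 with a standard error of 0.14. Its spots well above background numbered 13 of 19 and 15 of 20, and its spots ran from 1.90 to 52.8 (median 14.8) and from 8.49 to 58.7 (median 26.3). Thus both were brighter on the oe-HOTTIP-labelled array before scaling, by 0.66 for miR-107 and 0.56 for miR-103a-3p on the log2 scale, about as much as the array as a whole. This depends on the miRNAs used for scaling. When the percentile was taken over the 156 miRNAs with over 50% of their spots well above background on both arrays, the median log2 difference of the pair was 0.44, against -0.042 with the scaling used here. The difference between the log2 differences of the pair was 0.095, with a 95% interval from -0.23 to 0.42 that covers spot error only.

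**Figure D1:**
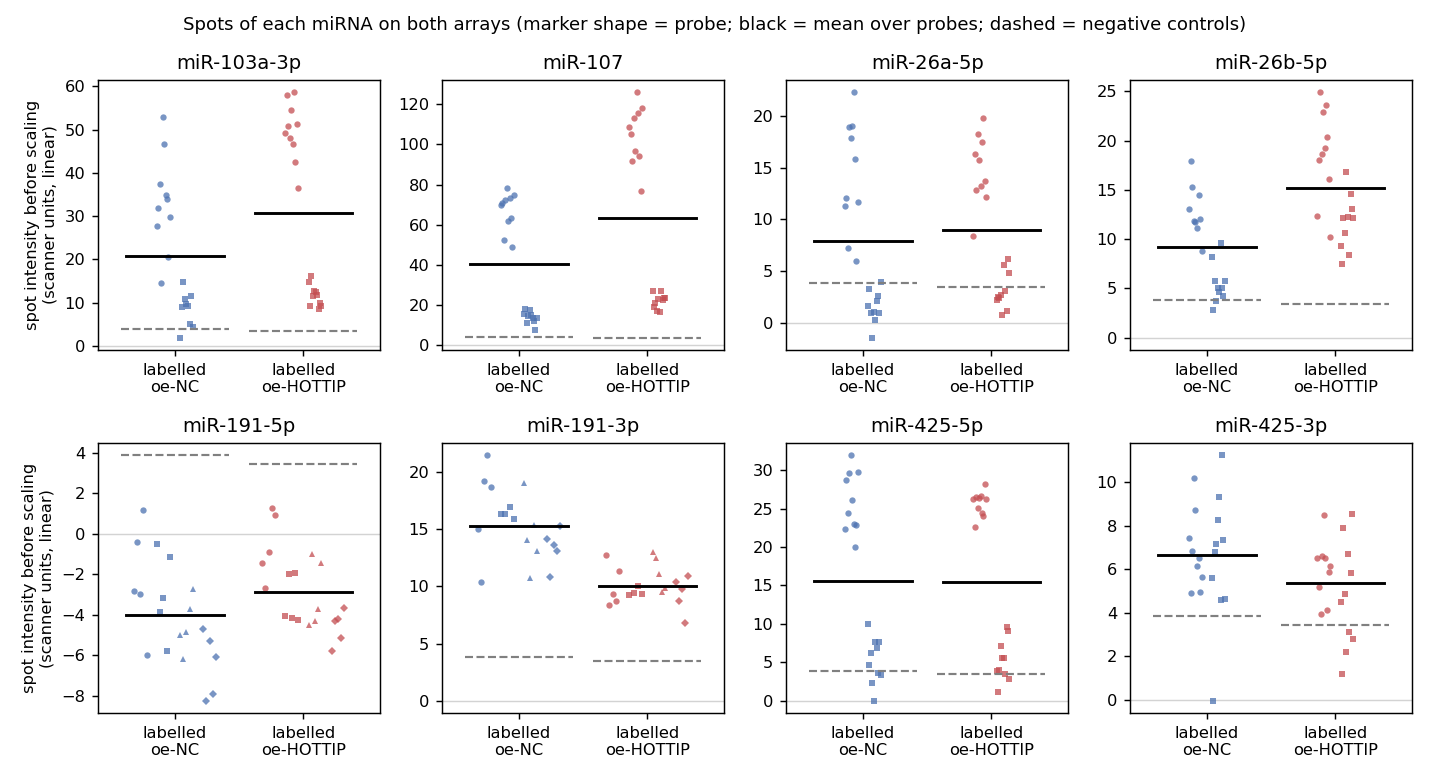
Each point is 1 spot, with intensity before scaling on a linear axis of its own for each miRNA, the arrays side by side, 1 marker shape per probe, black lines for the mean over probes and dashed lines for the mean of the negative control spots. The spots of miR-191-3p sit lower on the oe-HOTTIP-labelled array (mean 10.03) than on the oe-NC-labelled array (mean 15.3), those of miR-107 and miR-103a-3p sit higher, and those of miR-191-5p lie under the negative controls on both.

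The members of the miR-26 pair differed in their log2 differences when all probes were used. Few spots were well above background except for miR-26b-5p on the oe-HOTTIP-labelled array. miR-26a-5p had an intensity of 7.89 ± 3.98 (SD, 20 spots) on the oe-NC-labelled array, against 8.97 ± 2.72 (SD, 20 spots) on the oe-HOTTIP-labelled array. Its spots ran from -1.43 to 22.3 (median 4.98) and from 0.809 to 19.8 (median 7.26), and the arrays overlapped over nearly the whole range. Only 8 and 9 of its 20 spots were well above background. miR-26a-5p had a log2 difference of -0.47 with a standard error of 0.19. miR-26b-5p stood at 9.21 ± 2.33 (SD, 19 spots) and 15.2 ± 3.91 (SD, 20 spots), with 8 of 19 and 15 of 20 spots well above background. The spots of miR-26b-5p ran from 2.86 to 17.9 (median 8.82) and from 7.48 to 24.9 (median 13.8). Its log2 difference was 0.068 with a standard error of 0.12. The log2 difference of miR-26b-5p exceeded that of miR-26a-5p by 0.53, with a 95% interval from 0.095 to 0.97 over spots of all probes, dimmer ones included. That difference was 0.13 with another background correction (normexp with an offset of 50). In the authors' table it was -1.22 as the columns are named and 1.22 with the columns exchanged. The brighter probes gave log2 differences of -0.60 for miR-26a-5p (standard error 0.20) and -0.12 for miR-26b-5p (standard error 0.15). No interval was formed from the brighter probes alone, so whether the pair differs on them beyond spot error was not tested. The dimmer probe of miR-26a-5p had no spot well above background on either array, and that of miR-26b-5p none on the oe-NC-labelled array, so they give no second measurement of the difference.

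The DALRD3 miRNAs detected on both arrays were lower on the oe-HOTTIP-labelled array after scaling. Negative control spots did not share the higher brightness of that array, averaging 3.87 on the oe-NC-labelled array and 3.45 on it. Division by the percentile therefore sets signals near background lower there. How far this enters the values of the DALRD3 miRNAs was not tested. miR-191-3p had an intensity of 15.3 ± 2.87 (SD, 19 spots) on the oe-NC-labelled array, against 10.03 ± 1.51 (SD, 19 spots) on the oe-HOTTIP-labelled array. Its spots ran from 10.4 to 21.4 (median 15.2) and from 6.84 to 13.02 (median 9.77), so that the arrays overlapped only between 10.4 and 13.02. It was dimmer there even before scaling, at -0.61 on the log2 scale, although that array was the brighter one. Of its 19 spots, 18 were well above background on the oe-NC-labelled array and 3 on the other. After scaling, miR-191-3p was 2.39-fold lower, a log2 difference of -1.26 with a standard error of 0.075. Of its 4 probes, 2 had no spot well above background on the oe-HOTTIP-labelled array, and the others, with 1 and 2 spots of 5 above it there, gave log2 differences of -1.39 and -1.02. This was the only one of the 6 miRNAs detected on both arrays that passed 2-fold, the fold threshold named in the methods, against 21.1% of all 261 such miRNAs at least 2-fold lower and 18.0% at least 2-fold higher. The call did not hold without scaling (-0.61) or with normexp, where the log2 difference was -0.92 with no offset and -0.66 at an offset of 50.

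Before scaling, the intensities of miR-425-5p differed by less than their spread over spots, 15.5 ± 3.51 (SD, 20 spots) and 15.4 ± 2.24 (SD, 20 spots). Its spots ran from -0.0655 to 31.9 (median 15.0) and from 1.06 to 28.1 (median 16.1), with almost complete overlap. After each array was divided by its percentile this became a log2 difference of -0.66 with a standard error of 0.087, or 1.58-fold lower. Its brighter probe had all 10 spots well above background on each array, and the dimmer probe none of 10. The value of -0.66 thus rests on the brighter probe, and the dimmer one cannot check it. miR-425-3p, the opposite arm, had an intensity of 6.66 ± 2.54 (SD, 19 spots) on the oe-NC-labelled array, where 1 spot of 19 was well above background, and of 5.36 ± 2.03 (SD, 19 spots) on the oe-HOTTIP-labelled array, where it was not detected. Its own signal there was higher than the lowest detected signal of 2.43. Against that own signal, the bound was 1.95-fold lower after scaling and 1.24-fold lower without scaling. Both intensities of miR-425-3p lay under the 95th percentile of the negative control spots, 7.69 on the oe-NC-labelled array and 7.28 on the other. The bound thus describes signal at the level of background. Against a stricter floor of 6.44, where detection first reached 50% in a window of 51 miRNAs ordered by signal, the bound was 1.62-fold. Of the miRNAs detected only on the oe-NC-labelled array, 89.6% were at least 2-fold lower on the other by such a bound. With bounds included, 25.2% of the miRNAs detected on either array were at least 2-fold lower and 33.9% at least 2-fold higher.

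miR-191-5p, the arm in use as a reference, gave no signal on either array. Its mean intensity was -4.01 ± 2.01 (SD, 20 spots) on the oe-NC-labelled array and -2.87 ± 1.38 (SD, 20 spots) on the oe-HOTTIP-labelled array. Its 20 spots on the oe-NC-labelled array ran from -8.26 to 1.18, and the 20 on the oe-HOTTIP-labelled array from -5.77 to 1.27. None of them was well above background on either array, and all 4 probes had negative means on both. The processed signal is a difference from background, so values below 0 mark spots dimmer than the estimated background. The opposite arm of the same hairpin, miR-191-3p, was detected on both arrays. This is a comparison of detection, not of abundance, because the arms are read by different probes. In the authors' normalized table miR-191-5p also stood at the floor in both columns.

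**Figure D2:**
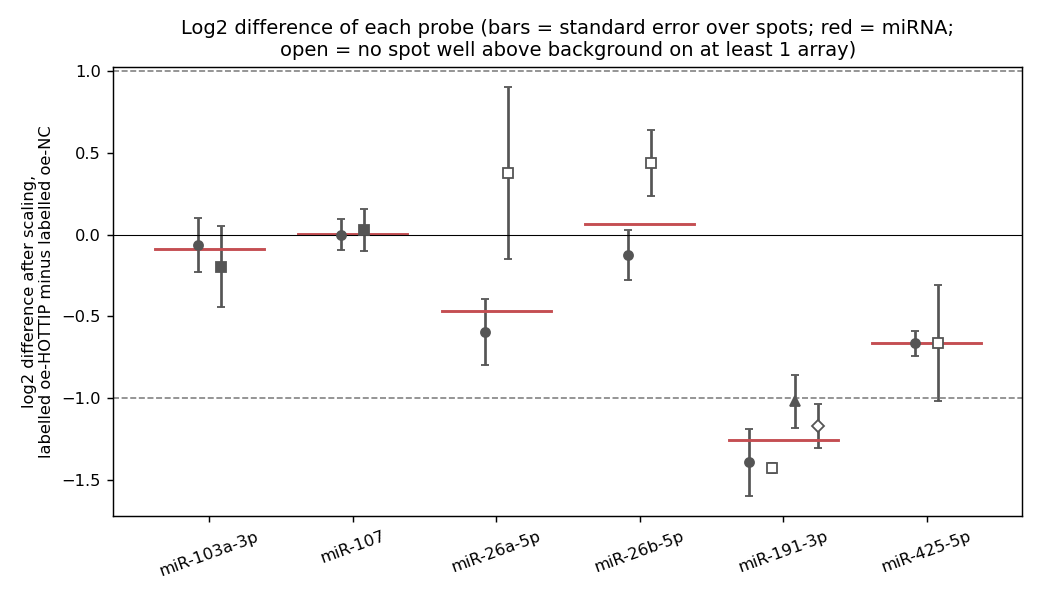
Log2 differences after scaling (vertical axis) of the separate probes of the 6 miRNAs detected on both arrays, with bars for the standard error over spots, red lines for the miRNA as a whole, dashed lines at 2-fold and open markers for probes with no spot well above background on at least 1 array. The filled markers of miR-191-3p lie at -1.39 and -1.02, those of miR-107 and miR-103a-3p near 0, and miR-26a-5p, miR-26b-5p and miR-425-5p have 1 filled marker each.

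Only miR-103a-3p and miR-107 had spots well above background for every probe on both arrays. Their probes differed by 0.13 and 0.027 on the log2 scale.

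Set side by side, the DALRD3 miRNAs detected on both arrays had lower log2 differences than miR-103a-3p and miR-107. The log2 differences ran from -1.26 for miR-191-3p through -0.66 for miR-425-5p, -0.47 for miR-26a-5p, -0.089 for miR-103a-3p and 0.0059 for miR-107 to 0.068 for miR-26b-5p. miR-103a-3p, miR-107 and miR-26b-5p were neighbours in this order and did not differ beyond their spread over spots. The mean of miR-191-3p and miR-425-5p minus the mean of miR-103a-3p and miR-107 was -0.92, with a 95% interval from -1.11 to -0.72 over spots. A scaling factor cancels in such a difference. It ranged from -0.999 with the brightest probe to -0.29 with normexp and an offset of 50 over the settings tried, apart from the authors' table as its columns are named, where it was 0.88. Within the DALRD3 locus, miR-191-3p minus miR-425-5p was -0.59, with an interval from -0.82 to -0.37, which shrank to -0.071 with normexp and an offset of 50. The mean of the miR-26 pair differed from that of miR-103a-3p and miR-107 by -0.16, with an interval from -0.43 to 0.12. In all, 5 such comparisons were made, and their intervals do not include differences between RNA extractions or cultures.

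**Figure D3:**
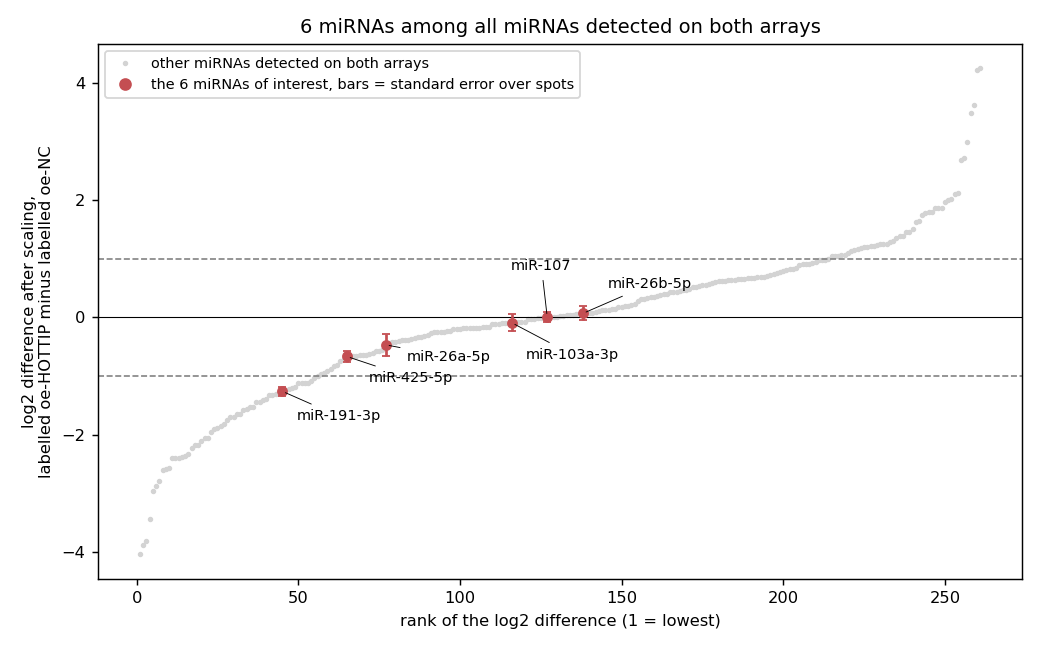
The 261 miRNAs detected on both arrays in order of their log2 difference after scaling (vertical axis, oe-HOTTIP-labelled array minus oe-NC-labelled array), with 6 miRNAs in red, their standard errors over spots as bars and dashed lines at 2-fold. miR-103a-3p, miR-107 and miR-26b-5p lie in the middle of the order, and miR-191-3p lies below the lower 2-fold line with 44 miRNAs lower than it.

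As a list, the 6 miRNAs detected on both arrays had a median log2 difference of -0.28, and 4 of them were below 0. The median over all 261 was 0.024, and 126 of the 261 were below 0. The median absolute log2 difference was 0.28 for the 6 miRNAs and 0.70 for all 261, of which 39.1% were at least 2-fold apart in either direction. The same measure was 0.21 for the other reference miRNAs and 0.25 for the other host-gene miRNAs described below, so small differences were not particular to the 6. A total of 115 of the 261 miRNAs lay lower than miR-103a-3p, 126 lower than miR-107, 137 lower than miR-26b-5p, 76 lower than miR-26a-5p and 64 lower than miR-425-5p.

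The other arms and antisense entries of these loci were not detected. Of 5 on the array, namely miR-103a-2-5p, miR-103b, miR-26a-1-3p, miR-26a-2-3p and miR-26b-3p, the intensities lay between -1.58 and 2.14, under the negative control means. Beyond the miR-26 pair, miR-4465 and miR-1297 carried the miR-26 seed UCAAGUA. miR-1297 was not detected. miR-4465 stood at 6.48 ± 2.22 on the oe-NC-labelled array and 21.4 ± 4.17 on the other (SD within probes). Its log2 difference was 1.07 with a standard error of 0.13, so that miRNAs with this seed ran from -0.47 to 1.07. The upper end rests on a signal of miR-4465 under the 95th percentile of the negative control spots on the oe-NC-labelled array, 7.69. No other miRNA on the array with a sequence in the RefSeq table had the seed of miR-103a-3p and miR-107, GCAGCAU.

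Further miRNAs in use as references, a list of 12, were detected on both arrays in 11 cases, miR-484 being the exception. Their median log2 difference was 0.024, and 2 of the 11 were at least 2-fold lower. These were miR-1228-3p at -2.05 and miR-92a-3p at -1.52, while miR-423-5p and let-7a-5p had the highest values, both 0.67. Another 22 miRNAs that lie within host genes were detected on both arrays in 9 cases, with a median of -0.16. They ran from miR-151a-3p at -1.44 and miR-30e-5p at -0.97 to miR-128-3p at 0.46 and miR-140-3p at 0.77. Of these 9, 1 was at least 2-fold lower and none at least 2-fold higher.

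Dividing each array by a single one of these miRNAs, as is done with a reference in RT-qPCR, shifts all 261 log2 differences by that miRNA's own value, so the counts follow from the values above. With the 90th percentile, 55 were at least 2-fold lower and 47 higher on the oe-HOTTIP-labelled array. With miR-107 the counts were 56 and 47, with miR-103a-3p 53 and 54, and with miR-26b-5p 58 and 43. With miR-26a-5p they were 36 and 87, and with miR-425-5p 30 and 103. With miR-191-3p only 16 were lower and 170 higher. miR-191-3p is the opposite arm of the one in use as a reference, miR-191-5p. It had only 3 of 19 spots well above background on the oe-HOTTIP-labelled array. The lower calls made up 8.60% of all calls with miR-191-3p and 53.9% with the 90th percentile. miR-191-5p and miR-425-3p could not serve, since they were not detected on both arrays.

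**Figure D4:**
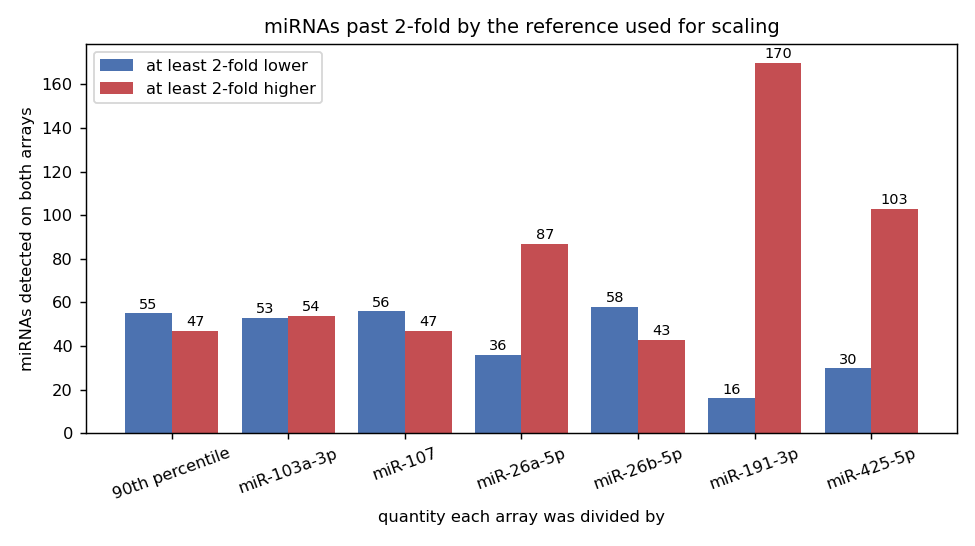
Number of miRNAs detected on both arrays (vertical axis) at least 2-fold lower (blue) or higher (red) on the oe-HOTTIP-labelled array when each array is divided by the quantity named on the horizontal axis. miR-103a-3p, miR-107 and miR-26b-5p give counts between 43 and 58 in each direction. miR-191-3p, which is not the arm in use as a reference, gives 16 and 170.

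In the authors' normalized table, each column matched the scanner output of the array with the other name (Spearman's rho across miRNAs 1.00 over 388 and 315 miRNAs, against 0.77 over 261 and 0.76 over 258 with the array of its own name). The directions in that table thus run opposite to those above, except for miR-107, whose difference was 0.38 there and 0.0059 above. In that table miR-191-3p was listed at 0.957 in the column named oe-NC and 2.49 in the column named oe-HOTTIP, and miR-425-5p at 1.39 and 2.27, on the log2 scale. miR-107 stood at 3.62 and 4.003, and miR-103a-3p at 2.71 and 2.97. miR-26a-5p stood at 0.532 and 1.45, and miR-26b-5p at 1.64 and 1.35. The order of the miRNAs was thus much as in the scanner output, with miR-191-3p farthest to one side and miR-26b-5p farthest to the other, and the files do not settle which set of names is right.

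**Figure D5:**
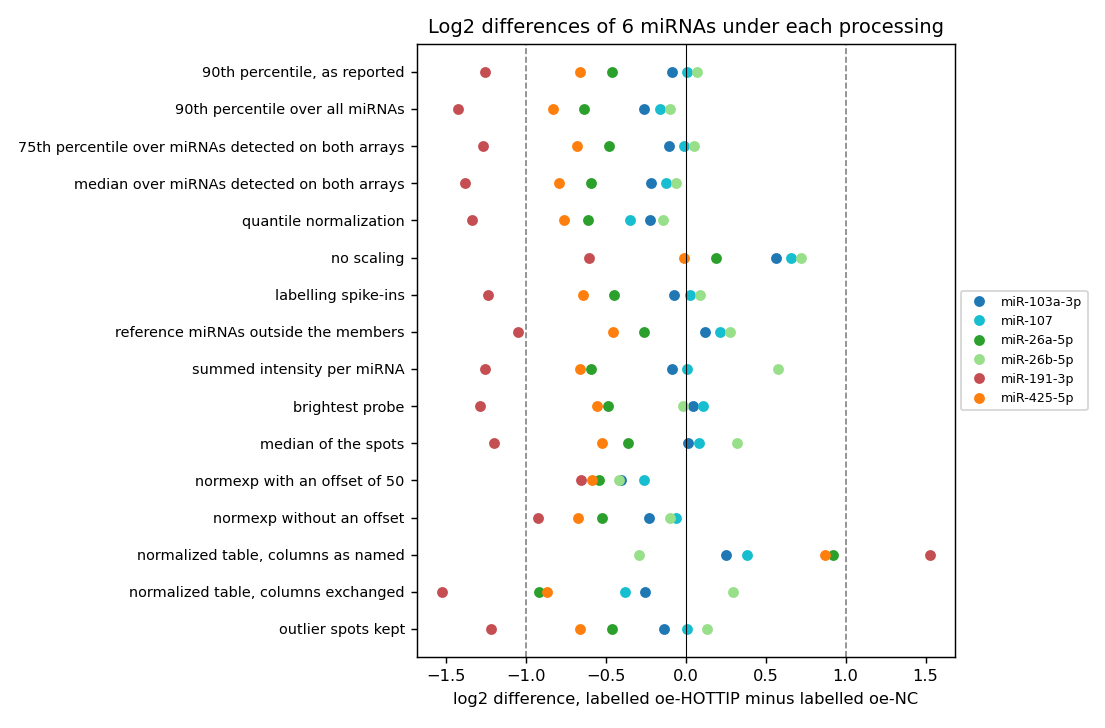
Log2 difference (horizontal axis, oe-HOTTIP-labelled array minus oe-NC-labelled array) of 6 miRNAs under each processing (rows), with dashed lines at 2-fold. miR-191-3p is the lowest of the 6 in every row but that of the normalized table with columns as named, where it is the highest at 1.53, and it comes inside the 2-fold line without scaling and with both forms of normexp.

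Of the miRNAs that mark epithelium, miR-205-5p, miR-200c-3p and miR-31-5p were detected on both arrays and miR-203a-3p on neither. The log2 differences ran from -0.64 to -0.41, and the summed intensity of the list was 476.8 and 553. Of the miRNAs that mark blood cells and macrophages, miR-451a, miR-144-3p and miR-223-3p were detected on both arrays and miR-142-3p on neither. Their log2 differences were -0.46, -0.33 and 0.69 in that order. The summed intensity of that list was 2265 on the oe-NC-labelled array and 2603 on the oe-HOTTIP-labelled array, or 809% and 592% of the scaling factor, nearly all of it from miR-451a, an erythroid miRNA that is also in the list of other references. Of the markers of liver and muscle, miR-122-5p was detected on both arrays, miR-133a-3p only on the oe-NC-labelled array and miR-1-3p on neither. The part of blood or serum RNA in the values of miR-103a-3p, miR-107, miR-26, miR-191 and miR-425 was not tested.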

How the data were processed

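The members and the other lists were chosen with earlier results of these data known. For both arrays, intensities per spot were deposited after background subtraction by the scanner software, next to median intensities of the spot and its surroundings and a sum per miRNA. The submitters' notes name Agilent Feature Extraction 10.10, and the file headers version 11.5.1.1. A further deposited table gives log2 values that the authors normalized in GeneSpring (90th percentile), over 2570 rows. Both of its columns have a median of 1e-06, the floor for values not detected, and its centring and direction were not settled.

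Spots of controls and outlier spots were left out. Means were taken over the spots of each probe and then over probes. For scaling, the 90th percentile of the 261 miRNAs detected on both arrays served as divisor, and log2 values followed. Pooled SDs within probes and standard errors over spots are technical errors. Intervals are 95% intervals from these standard errors. A miRNA detected on 1 array has a bound against its own signal on the other array, or the lowest detected signal there where that is higher. All 8 members are named, and from the lists of other reference and host-gene miRNAs those with the 2 highest and 2 lowest log2 differences. The summary and calls were tested on simulated data with 4-fold changes and the whole signal of 1 array made 1.5 times as bright. There 40 of 40 changed miRNAs were recovered, and 0 of 212 unchanged ones were called. The dimmest miRNAs, changes of 2-fold and a background that does not brighten were not simulated. The simulation thus does not speak for signals near background. With 1 array per group, no test was run, and precision is limited by the number of arrays. Alternatives covered scaling, summary of spots and probes, background correction, filters, outlier spots and the authors' table. normexp was run on median spot signals with limma 3.58.1 in R 4.3.3, and the rest in Python 3.11.15 with numpy 2.4.6, pandas 2.3.3 and matplotlib 3.10.9.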

Additional observations from a re-analysis of the deposited data

How the results depend on the processing

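No paired analysis was possible because there was only 1 array per group, and for that reason no array could be left out. Apart from the normalized table with columns as named, log2 differences ran from -0.41 to 0.56 for miR-103a-3p, -0.38 to 0.66 for miR-107, -0.92 to 0.19 for miR-26a-5p, -0.42 to 0.72 for miR-26b-5p, -1.53 to -0.61 for miR-191-3p and -0.87 to -0.014 for miR-425-5p, spans wider than the standard errors over spots. Without scaling, miR-103a-3p was at 0.56, miR-107 at 0.66, miR-26b-5p at 0.72, miR-26a-5p at 0.19, miR-425-5p at -0.014 and miR-191-3p at -0.61, the median was 0.37, 0 of the 6 miRNAs passed 2-fold, and 30 miRNAs of 261 were lower and 101 higher. In the normalized table as named, miR-191-3p turned to 1.53, miR-26a-5p was at 0.92, miR-425-5p at 0.87, miR-107 at 0.38 and the median at 0.63, and with columns exchanged miR-107 was at -0.38. With normexp and an offset of 50, miR-191-3p was at -0.66, 0 of the 6 passed 2-fold, and 26 miRNAs were lower and 7 higher, and without an offset 0 of the 6 passed, and 48 were lower and 24 higher. Where over 50% of the spots had to be well above background, only miR-103a-3p and miR-107 were left, with 0 past 2-fold. With scaling redone over the 156 miRNAs that passed, their median was 0.44, and 20 miRNAs were lower and 51 higher. With the scaling kept, a setting chosen after the data were seen, it was -0.042, with 33 lower and 23 higher. With no filter, 316 of 931 miRNAs were lower and 177 higher. With single references the counts lower and higher were 36 and 87 (miR-26a-5p), 30 and 103 (miR-425-5p) and 16 and 170 (miR-191-3p). The bound of miR-425-3p ran from 1.24-fold to 2.75-fold over 15 settings and reached 2-fold in 5 of them, and most of these settings were chosen after the data were seen. The normalized table gave no bound. Apart from the table as named, miR-191-3p and miR-425-5p were below 0 in all 15 settings, miR-26a-5p in 14, miR-103a-3p in 11, miR-107 in 7 and miR-26b-5p in 6. Signal over background limits miR-26a-5p, miR-26b-5p and miR-425-3p, and also miR-191-3p, which had 3 of 19 spots well above background on the oe-HOTTIP-labelled array.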
